A study of Mus musculus with 15 samples.

Results

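The cytosolic ribosomal protein genes were taken as every row of the count table whose symbol has the form Rpl or Rps plus a number, with an optional a, x or l, together with Rplp0, Rplp1, Rplp2 and Rpsa. This gave 82 of 27019 rows, 32 named for the small subunit and 50 for the large subunit. Of these, 79 are annotated as protein coding in GENCODE M21 (GRCm38), while Rpl6l and Rpl32l are processed pseudogenes and Rps4l is a transcribed processed pseudogene. The filter on low counts kept 81 of the 82 rows and left out Rpl3l, which had 7 counts over all libraries. Symbols of another form were not taken, so genes such as Rps3a1, Fau and Rack1, which also give proteins of the cytosolic ribosome, are described apart.

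A ribosome holds a single copy of almost every ribosomal protein, and the proteins of a subunit are made in matched amounts. Their mRNAs are among the most abundant of a cell, are short, and begin with a C followed by a run of pyrimidines, the terminal oligopyrimidine tract, through which the kinase complex mTORC1 and the RNA-binding protein LARP1 set their translation and stability. A resting T cell makes little protein, and receptor stimulation is known to raise ribosome production before the cells divide.

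The cells were CD8+ T cells from spleens of 8-10 weeks old C57BL/6 mice that all carry the OT-I transgenic T cell receptor, which recognises the ovalbumin peptide OVA257-264. The 4 groups, each of 2 libraries of poly(A) RNA, were Susd2-/- day 3, WT day 3, Susd2-/- day 0 and WT day 0. At day 3 splenocytes had been stimulated with the peptide, at day 0 they were untreated, and both were then enriched with a bead kit that isolates CD8+ T cells. Whether both libraries of a group stem from different mice is not in the labels. The p-values rest on the spread within groups, estimated from all 8 libraries together, be it biological or technical. The day 3 libraries are numbered 1 and 2 and the day 0 libraries 3 and 4. Susd2, the targeted gene, had 0 and 2 counts in the Susd2-/- day 3 libraries against 16 and 10 counts in WT day 3, and 1 and 3 counts in Susd2-/- day 0 against 90 and 80 counts in WT day 0. Library totals ran from 26829807 to 53846911 counts. Cd8a, which marks CD8 T cells, was present in every library. It stood at 719 and 729 CPM (counts scaled to library size, with TMM factors) in Susd2-/- day 3, 757 and 768 in WT day 3, 1226 and 1196 in Susd2-/- day 0 and 1225 and 1256 in WT day 0.

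The stretch around the annotated start of a gene is where the pyrimidine tract of the mRNA lies, so 30 bases, from 10 before to 20 after the RefSeq start (GRCm38.p6), are shown for members that the results turn on. The longest run of C and T is in capitals, 5′ to 3′ on the gene's strand. Rps27, Rps18, Rps6, Rplp2 and Rpl13a have a long run, while Rpl26 and Rps7 do not have one in this window.
The windows lie in GRCm38.p6 with Rps27 at chr3:90213629-90213658 on the minus strand, Rps18 at chr17:33955646-33955675 on the minus strand, Rps6 at chr4:86857348-86857377 on the minus strand, Rplp2 at chr7:141447641-141447670 on the plus strand. The others are Rpl13a at chr7:45128726-45128755 on the minus strand, Rpl26 at chr11:68901556-68901585 on the plus strand, Rps7 at chr12:28635934-28635963 on the minus strand.
Rps27: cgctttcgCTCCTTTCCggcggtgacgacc
Rps18: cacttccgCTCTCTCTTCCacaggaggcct
Rps6: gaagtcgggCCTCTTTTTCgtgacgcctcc
Rplp2: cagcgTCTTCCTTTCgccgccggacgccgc
Rpl13a: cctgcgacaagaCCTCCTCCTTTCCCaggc
Rpl26: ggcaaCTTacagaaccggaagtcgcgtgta
Rps7: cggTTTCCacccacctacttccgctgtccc

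A RefSeq promoter entry was matched for 60 of the 82 members. A run of at least 8 C or T bases on the gene's strand lay in the window of 24 of the 60 (40.0%), against 13.0% of 27025 genes with an entry. In the 250 bases before to 50 after the start, read on both strands, the ETS-type motif CCGGAAG was present in 25 of 60 members (41.7%) against 9.9% of genes. GGGCGG was present in 35 (58.3%) against 38.2%, AAGATGG in 9 (15%) against 7.3%, and TATAAA in 7 (11.7%) against 15.7%. A match describes these letters only, and the annotated start may differ from the start used in T cells.

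Before stimulation, ribosomal protein mRNAs of both subunits were lower in Susd2-/- cells than in WT cells. Of 81 members tested, 71 fell and 0 rose at day 0, with a median log2 fold change of -0.52, a ratio of 0.698 (edgeR's quasi-likelihood test, adjusted p below 0.05 over 16057 genes). Over all genes tested, 12.1% were called lower and 11.5% higher in that comparison, and the median was 0.01. At an unadjusted p below 0.05, 74 members were lower and 0 higher, and the share of all genes at that cutoff is not given here. Both Susd2-/- day 0 libraries lay below both WT day 0 libraries for 76 of 81 members, as they did for 31.4% of all genes tested.

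The members made up 9.41% and 8.69% of all counts in the Susd2-/- day 0 libraries, against 12.6% and 12.4% in the WT day 0 libraries. At day 3 the shares were 7.62% and 8.07% in Susd2-/- and 7.52% and 8.01% in WT. With 2 libraries against 2, an exact permutation test cannot give a two-sided p below 0.333, so no test of the shares was made. Both Susd2-/- day 0 libraries lay below WT day 0, and the day 3 groups, which overlapped each other, lay below both. The small subunit rows held 4.39% and 4.05% of counts in Susd2-/- day 0 against 5.90% and 5.83% in WT day 0, and the large subunit rows 5.02% and 4.64% against 6.66% and 6.56%. Fewer cells of a type that makes much of these mRNAs and less of these mRNAs per cell cannot be told apart in such bulk samples.

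**Figure D1:**
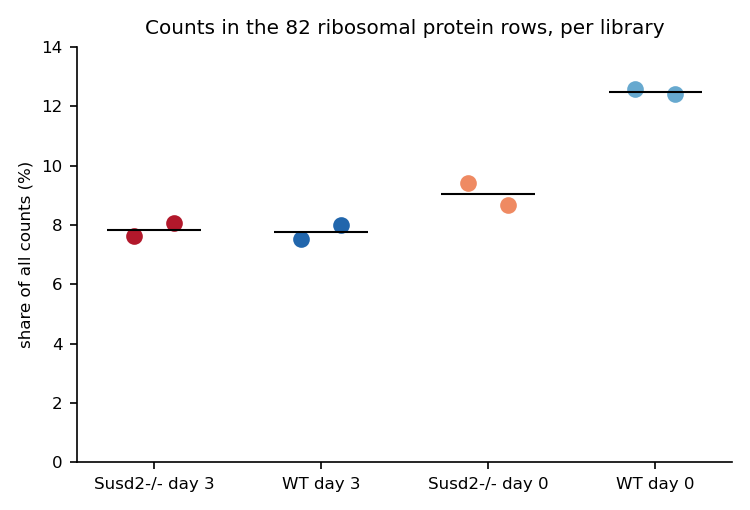
Share of all counts (%, y axis) in the 82 ribosomal protein rows in each of 8 libraries, by group; points are libraries and horizontal lines are means of 2. Both day 3 groups lie at 7.52% to 8.07%, Susd2-/- day 0 lies at 8.69% to 9.41%, and WT day 0 stands highest at 12.4% to 12.6%.

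The fall was alike in size for the subunits. Of 32 small subunit members 28 fell, with a median of -0.52, and of 49 large subunit members tested 43 fell, also with a median of -0.52. Rpl30, a large subunit protein, had 568 and 529 CPM in Susd2-/- day 0 and 938 and 910.0 CPM in WT day 0, a log2 fold change of -0.75 ± 0.063 (SE, adjusted p = 1.6e-07). Rpl26, also of the large subunit, had 826 and 727 CPM in Susd2-/- day 0 and 1343 and 1328 CPM in WT day 0 (log2 fold change -0.78 ± 0.071, adjusted p = 5.1e-07). The groups did not overlap for either gene, and Rpl26 had the lowest fold change of the members that passed. Rps18, of the small subunit, had 1817 and 1581 CPM in Susd2-/- day 0 and 2738 and 2728 CPM in WT day 0 (-0.69 ± 0.071, adjusted p = 1.98e-06). Rpl36a, Rpl31 and Rpl37 fell by 0.74, 0.71 and 0.69 on the log2 scale.

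Rpl5 and Rpl11 form a particle with 5S ribosomal RNA that can bind MDM2, and they fell by 0.58 and 0.64 on the log2 scale (adjusted p = 2.76e-06 and 6.02e-07). Rpl11 had 1062 and 986 CPM in Susd2-/- day 0 and 1608 and 1583 CPM in WT day 0. Rpl22, which is needed for the development of alpha-beta T cells in mice, had 489.6 and 472 CPM in Susd2-/- day 0 and 757 and 747 CPM in WT day 0 (-0.65 ± 0.061, adjusted p = 6.02e-07). Rps6, the substrate of the S6 kinases, had 1512 and 1427 CPM in Susd2-/- day 0 and 2098 and 1993 CPM in WT day 0 (-0.48 ± 0.065, adjusted p = 3.07e-05). Rps3, which sits at the mRNA entry of the small subunit, and Rpsa, also known as the laminin receptor, fell by 0.54 and 0.50. Rpl38, which in mice affects the translation of Hox mRNAs, and Rpl10, which joins the large subunit late in its assembly, fell by 0.61 and 0.52. Rps27a, made as a fusion with ubiquitin, had 598 and 714 CPM in Susd2-/- day 0 and 958 and 1037 CPM in WT day 0 (-0.60 ± 0.10, adjusted p = 0.00149).

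The acidic proteins of the stalk, which binds elongation factors, did not move as a unit. Rplp1 had 2053 and 1744 CPM in Susd2-/- day 0 against 2875 and 2931 CPM in WT day 0 (-0.61 ± 0.069, adjusted p = 3.93e-06). Rplp2, its partner in the stalk, had 1018 and 963 CPM in Susd2-/- day 0 against 955 and 910.1 CPM in WT day 0 (0.09 ± 0.061, adjusted p = 0.344). Rplp0, the base of the stalk, was at -0.24 ± 0.063 (adjusted p = 0.00826). Its call was lost without Susd2-/- library 4 (adjusted p = 0.134), without WT library 3 (adjusted p = 0.155) and without WT library 4 of day 0 (adjusted p = 0.0554). Rplp1 thus lay below WT in both libraries, and the Rplp2 libraries of Susd2-/- lay above both of WT.

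The 10 members that did not pass at day 0 were abundant or scarce rows. The abundant ones were Rps13 (-0.15), Rpl8 (-0.14), Rps2 (-0.13), Rpl28 (-0.02) and Rplp2 (0.09), with adjusted p from 0.0943 to 0.899. Rpl28 had 878 and 761 CPM in Susd2-/- day 0 and 838 and 820 CPM in WT day 0, so its groups overlapped. The scarce ones were Rpl24, Rps10, Rpl32l, Rps4l and Rpl39l, none above 12 CPM at day 0, with standard errors of 0.17 to 0.99. Rpl24 and Rps10 are core protein genes, and their shared sequence is described further on.

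**Figure D2:**
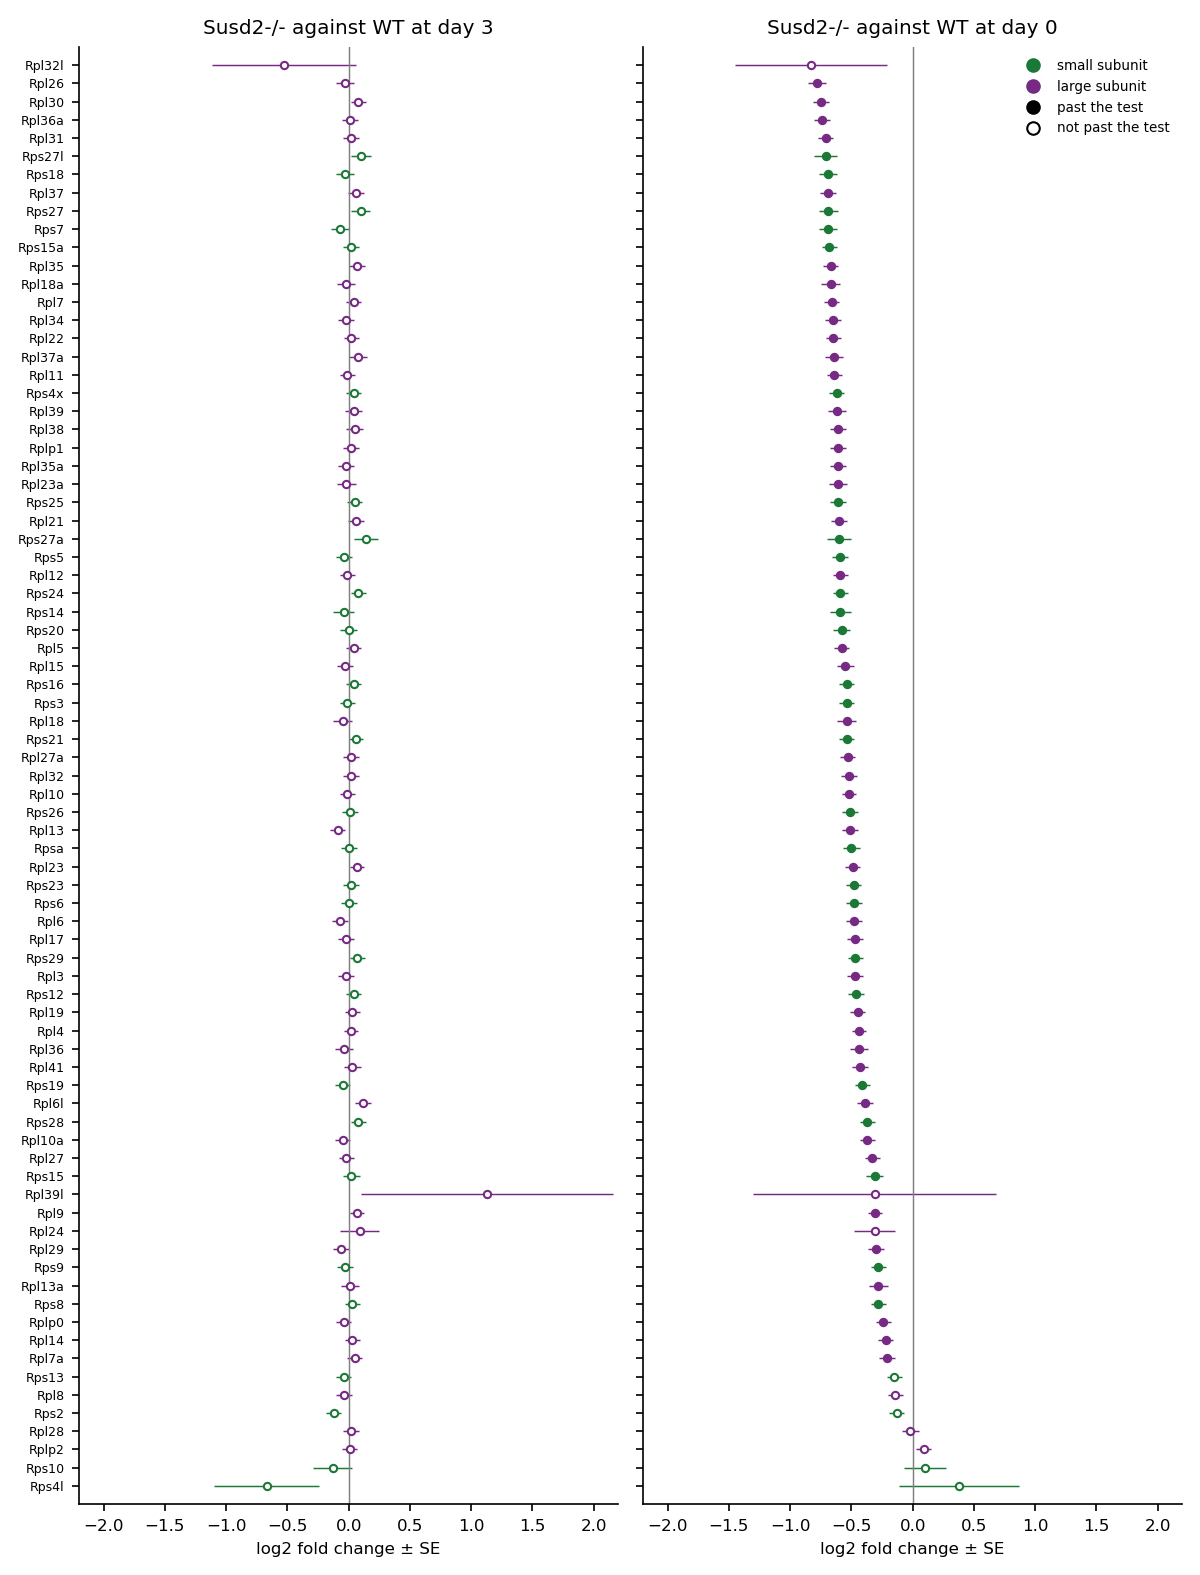
Log2 fold change ± SE of Susd2-/- against WT (x axis) for 79 of the 81 ribosomal protein genes tested, at day 3 (left) and day 0 (right), with genes in the same order in both panels; green marks small and purple large subunit genes, and filled points passed the test. At day 0, 69 of the points are filled, all left of 0, and at day 3 none is filled; the medians over all 81 are 0.02 at day 3 and -0.52 at day 0.

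Several other values moved with the genotype at day 0. Among genes at 64 CPM or more on average (a log2 CPM of 6), with ribosomal pseudogene and predicted gene rows left out, the median log2 fold change of non-members was -0.30 for 19 genes with transcripts up to 600 bases and -0.23 for 111 genes of 600 to 1000 bases. It was -0.12 for 240 genes of 1000 to 1500 bases, 0.01 for 710 of 1500 to 2500 bases and 0.11 for 1466 genes over 4000 bases. Members in the first 3 of those classes stood at -0.60 (18 genes), -0.51 (30) and -0.48 (17), and the 8 of 1500 to 2500 bases at -0.56. The median transcript of the members has 874.5 bases. Each length is that of 1 annotated transcript, the longest of its rank, which gave Rps15a 5179 bases and Rps20 3706. With an offset for transcript length in the fit, chosen after seeing the data, 63 members fell and 1, Rplp2, rose, and the median was -0.41. The offset uses these annotated lengths. Where the mRNA in the cells is shorter, it may take away too little of the fall. What part RNA length or integrity had in the fall beyond that offset was not tested.

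**Figure D3:**
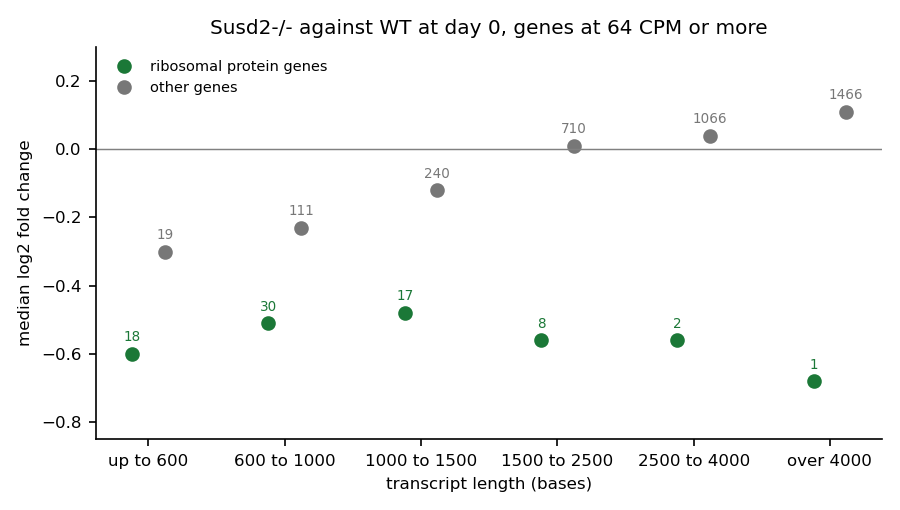
Median log2 fold change of Susd2-/- against WT at day 0 (y axis) by transcript length class in bases (x axis), for genes at 64 CPM or more; green points are ribosomal protein genes and grey points other genes, with the number of genes beside each point. Other genes run from -0.30 in the shortest class to 0.11 over 4000 bases, and ribosomal protein genes lie between -0.48 and -0.68 in every class. The class of 2500 to 4000 bases holds 2 ribosomal protein genes and the class over 4000 bases holds 1. Lengths are those of 1 annotated transcript per gene, and the mRNAs in these cells may be shorter.

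Markers of other cells also differed. Macrophage and monocyte markers summed to 192 to 206 CPM in Susd2-/- day 0 against 100.5 to 102 CPM in WT day 0, with 9 of 14 called higher and 0 lower, Csf1r among them at 23.3 and 22.7 CPM against 9.59 and 9.73 CPM. B cell markers summed to 606 to 671 CPM in Susd2-/- day 0 against 532 to 541 CPM in WT day 0, with 2 of 10 called higher, Ighm and Pax5. NK cell markers summed to 24.1 to 29.7 CPM in Susd2-/- day 0 against 36.8 to 39.1 CPM in WT day 0, with 2 of 7 called lower. CD8 T cell markers summed to 7634 to 8150 CPM in Susd2-/- day 0 against 8610 to 8691 CPM in WT day 0, with 6 of 14 called lower and 2 higher. At day 3 the macrophage and monocyte markers summed to 11.2 to 13.2 CPM in Susd2-/- and 11.7 to 15.4 CPM in WT, and Vcam1, C1qa, C1qc, Adgre1, Spic and Marco were at 0 in all 4 libraries. B cell markers summed to 280.0 to 292 CPM in Susd2-/- day 3 and 261 to 267 CPM in WT day 3, most of it Ighm. CD4 T cell markers summed to 955 to 994 CPM in Susd2-/- day 3, 985 to 1008 in WT day 3, 75.9 to 85.7 in Susd2-/- day 0 and 60.4 to 62.3 in WT day 0. Of these Il2ra, which activated T cells of either kind make, held 940.2 to 992 CPM at day 3, and Cd4 itself stood at no more than 0.41 CPM in any library. Of CD4 T cell markers 2 of 6 were higher at day 0, of plasma cell markers 2 of 5 were higher and 2 lower, and of dendritic cell markers 1 of 4 was higher and 1 lower. Of erythroid markers 1 of 3 was lower, and of 4 platelet markers and 1 neutrophil marker 0 passed. Over all genes tested, 12.1% were called lower and 11.5% higher at day 0, so counts of 1 or 2 in these small lists say little. Mitochondrially encoded genes held 1.66% and 1.63% of counts in Susd2-/- day 0 against 2.03% and 2.08% in WT day 0. Their part in the result was not tested.

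After 3 days with the peptide, no ribosomal protein gene passed the test between the genotypes, which does not exclude small differences. Of 81 members 0 fell and 0 rose at day 3 by edgeR, where 0.0872% of all genes were called lower and 0.0498% higher. At an unadjusted p below 0.05 there were also 0 members, and the share of all genes at that cutoff is not given here. DESeq2 and limma voom called 0 members, where they called 66 and 25 of the 16057 genes tested. The median log2 fold change was 0.02, and from the lower to the upper quartile the members ran from -0.03 to 0.05. Rpl30 had 406 and 445.5 CPM in Susd2-/- day 3 and 400.0 and 406 CPM in WT day 3, which overlap, at 0.08 ± 0.063 (adjusted p = 0.821). Rpl26 had 784 and 854 CPM in Susd2-/- day 3 and 791 and 877 CPM in WT day 3, also overlapping (-0.03 ± 0.071). The ranges of the genotypes did not overlap for 14 of 81 members, against 33.7% of all genes tested. Library 1 of Susd2-/- day 3 lay below the WT day 3 mean for 58 members, with a median of -0.04, and library 2 for 17, with a median of 0.06.

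The difference between the genotypes itself differed between the days. The interaction of genotype and day was called for 64 of 81 members, all towards a higher day 3 to day 0 ratio in Susd2-/- (0 lower), with a median of 0.53. Over all genes tested, 6.6% were called in that direction and 6.88% in the other. At an unadjusted p below 0.05, 71 members were higher and 0 lower, again without the share of all genes at that cutoff. By adjusted p, Rpl30 led, with an interaction of 0.83 ± 0.089 (adjusted p = 8.47e-06), followed by Rpl31 and Rpl35 at 0.74 each (adjusted p = 2.66e-05 each). Among the 17 members not called were Rplp0, Rplp2, Rpl8, Rpl28, Rps2 and Rps13. The interaction uses the same libraries as the comparisons within each day and is not independent of them.

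At day 3 against day 0, the members fell and rose in near equal numbers in Susd2-/- cells, at shares close to those of all genes. Of 81 members 29 fell and 28 rose, with a median of 0.01, while 39.7% of all genes tested were called lower and 36.7% higher, with a median of -0.12. Of 32 small subunit members 18 fell and 9 rose (median -0.21), and of 49 large subunit members 11 fell and 19 rose (median 0.09). Scaled by total counts with no TMM factor, 44 fell and 14 rose, the median of the members was -0.19 and that of all genes -0.32. The median of the members lay 0.13 above that of all genes, a difference that a scaling cannot alter. It was -0.05 over genes with an average of at least 1 CPM, -0.04 with the length offset, and 0.07 without Susd2-/- library 4 of day 0 to 0.25 without Susd2-/- library 1 of day 3. Without Susd2-/- library 3 of day 0 the count of falls was 17.

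In WT cells, most ribosomal protein mRNAs took a smaller part of the RNA at day 3 than at day 0. Of 81 members 61 fell and 9 rose, with a median log2 fold change of -0.52, while 39.0% of all genes tested were called lower and 36.2% higher, with a median of -0.14. All 32 small subunit members passed the test, 28 lower and 4 higher, with a median of -0.71. Of 49 large subunit members 33 fell and 5 rose, with a median of -0.43. These values are TMM-scaled, so they are relative to other genes of a library, and a change in total RNA per cell was not measured. Total counts gave 65 falls and 6 rises, with a median of -0.70 for the members and -0.32 for all genes. The median of the members minus that of all genes was -0.38 under either scaling, -0.56 over genes with an average of at least 1 CPM, and -0.39 to -0.30 with a library left out.

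**Figure D4:**
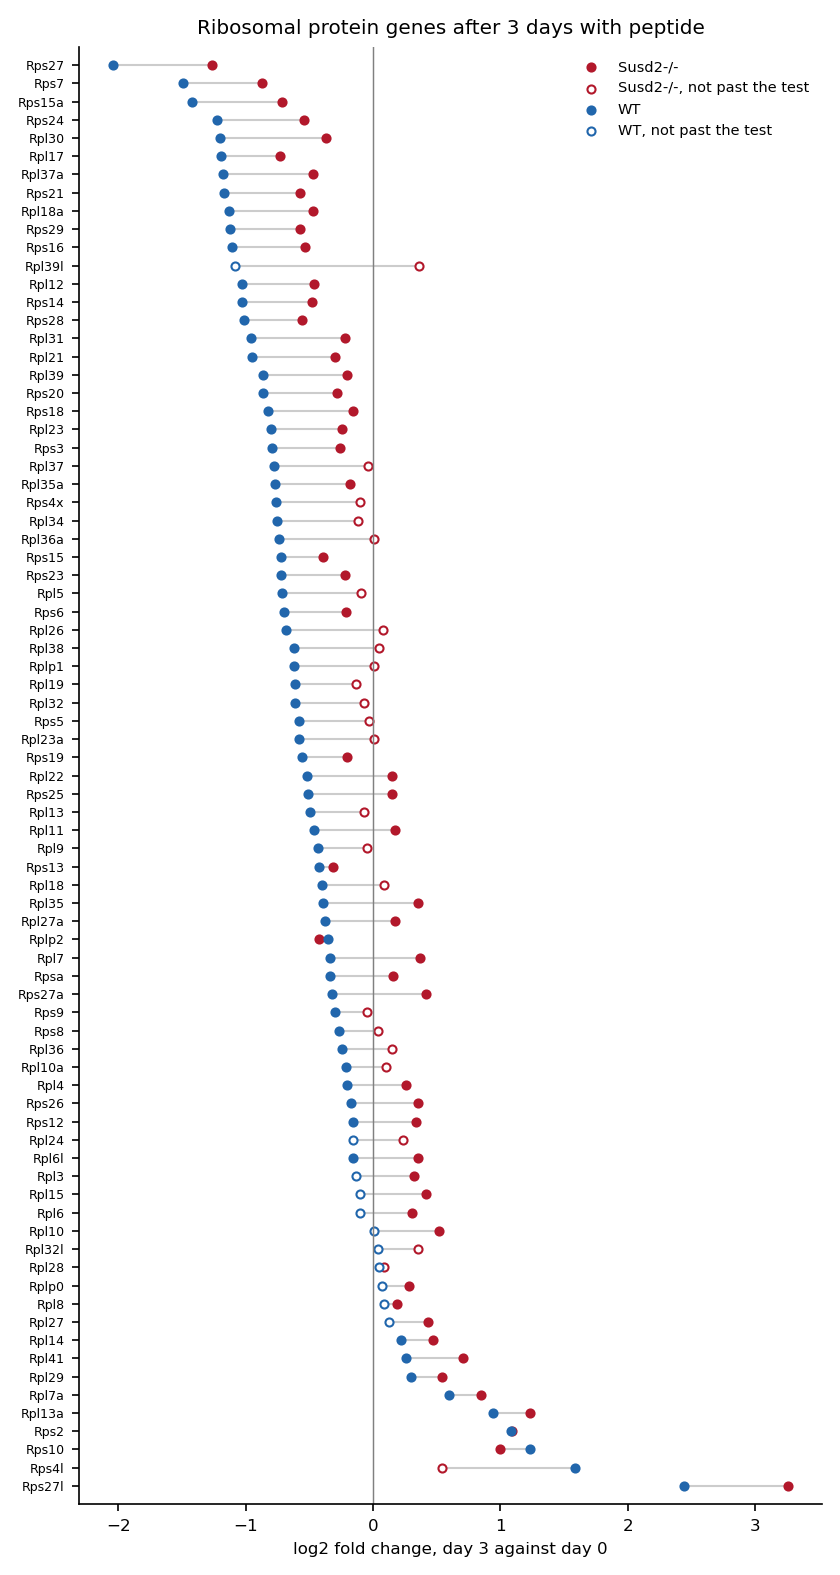
Log2 fold change of day 3 against day 0 (x axis) for 79 of the 81 ribosomal protein genes tested (y axis), with Susd2-/- in red and WT in blue; filled points passed the test and a grey line joins the genotypes. Most red points lie right of the blue ones, Rps27 is lowest at -1.26 in Susd2-/- and -2.04 in WT, and Rps27l is highest at 3.26 in Susd2-/- and 2.44 in WT.

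In both genotypes 29 of 81 members fell and 8 rose, where 33.7% of all genes tested were called lower in both and 32.5% higher in both. The share of members that fell was thus close to that of all genes, and the share that rose was smaller. Rps7 had 745 and 804 CPM in Susd2-/- day 3 against 1449 and 1375 CPM in Susd2-/- day 0 (-0.87 ± 0.073, adjusted p = 4.59e-09). In WT it had 743 and 882 CPM at day 3 against 2267 and 2292 CPM at day 0 (-1.49 ± 0.074, adjusted p = 2.27e-12). Rps15a fell by 0.71 in Susd2-/- and by 1.42 in WT on the log2 scale, and Rps24, a gene mutated in human Diamond-Blackfan anaemia, by 0.54 and 1.22. Rpl30 fell by 0.37 in Susd2-/- and by 1.20 in WT, and Rpl17 by 0.73 and 1.19.

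The members that rose in both genotypes were Rpl7a, Rpl13a, Rpl14, Rpl29, Rpl41, Rps2, Rps10 and Rps27l. With total counts 6 of the 9 rises in WT were still called, and those of Rpl14 (0.04, adjusted p = 0.543), Rpl29 (0.12, adjusted p = 0.0951) and Rpl41 (0.07, adjusted p = 0.312) were not. Rps2, a core protein of the small subunit, had 3611 and 3401 CPM in Susd2-/- day 3 against 1714 and 1569 CPM in Susd2-/- day 0 (1.09 ± 0.062, adjusted p = 4.29e-12). In WT it had 3735 and 3872 CPM at day 3 against 1795 and 1799 CPM at day 0 (1.08 ± 0.062, adjusted p = 5.34e-12). The Susd2-/- libraries of Rps2 lay below those of WT on both days without passing the test, at -0.12 for day 3 and -0.13 for day 0, and its interaction was 0.01 ± 0.086. Rpl7a had 817 and 869 CPM in Susd2-/- day 3 against 493 and 442 CPM in Susd2-/- day 0 (0.85 ± 0.063), and in WT 815 and 819 CPM at day 3 against 539 and 542 CPM at day 0 (0.60 ± 0.063). Rpl41, which encodes the shortest ribosomal protein, rose by 0.71 in Susd2-/- and by 0.26 in WT. Rplp2 fell in both, by 0.42 in Susd2-/- and by 0.35 in WT.

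For 13 of 81 members the calls were opposite, higher at day 3 in Susd2-/- and lower at day 3 in WT, as they were for 0.343% of all genes tested. Among the 13 were Rpl4, Rpl7, Rpl11, Rpl22, Rpl27a, Rpl35, Rps25, Rps26, Rps27a and Rpsa. Rpl7 had 1858 and 1980.0 CPM in Susd2-/- day 3 against 1545 and 1422 CPM in Susd2-/- day 0 (0.37 ± 0.061, adjusted p = 1.95e-05), and in WT 1830 and 1894 CPM at day 3 against 2376 and 2324 CPM at day 0 (-0.34 ± 0.061, adjusted p = 6.21e-05). The day 3 libraries of the genotypes overlapped, and the day 0 libraries lay on either side of them. With total counts 8 of the 13 kept a positive sign and 3 kept the call. Rpl11, Rpl22, Rpl27a, Rps25 and Rpsa turned negative, as did Rpl8 among the other rises. Other settings also cost calls. The Rpl22 rise was lost with DESeq2 (0.13, adjusted p = 0.0555). Over genes averaging at least 1 CPM, the edgeR calls of Rpl11 (0.12, adjusted p = 0.0809) and Rpsa (0.11, adjusted p = 0.128) were lost. The Rps27a fall in WT was lost with lane 1 alone (-0.39, adjusted p = 0.0754).

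**Figure D5:**
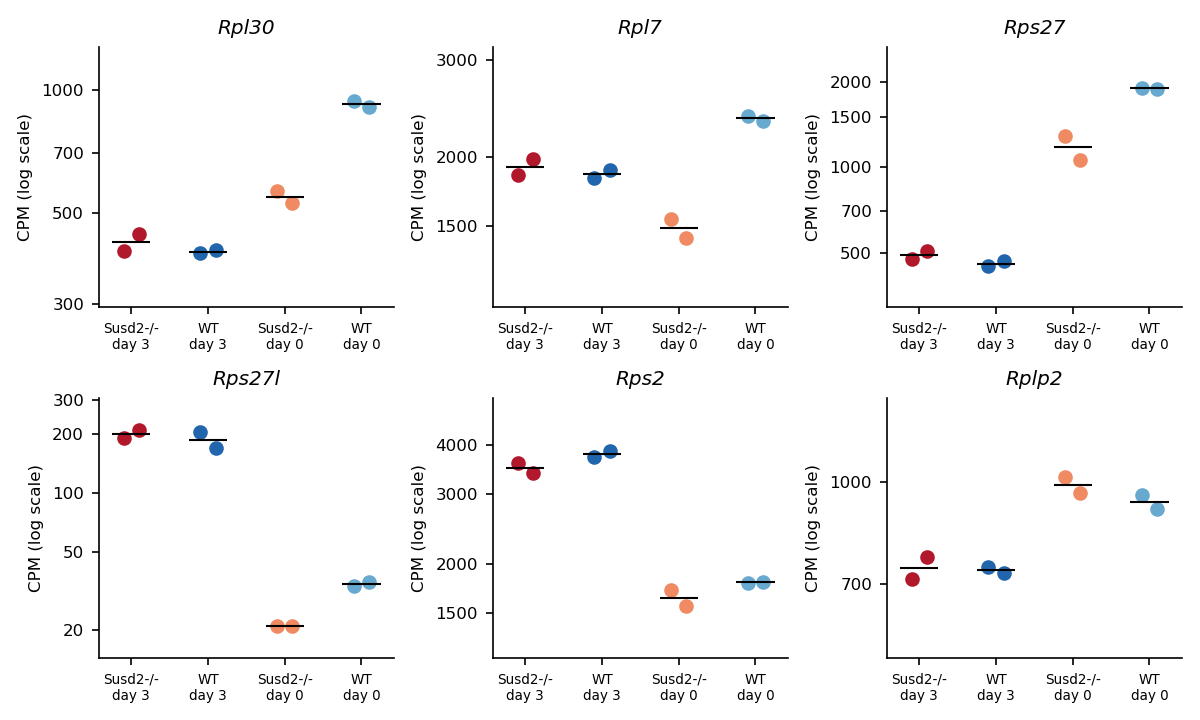
CPM of 6 ribosomal protein genes (y axis, log scale) in each library of the 4 groups; points are libraries and horizontal lines are means of 2. Rpl30 and Rpl7 are lower in Susd2-/- than in WT at day 0 and overlap at day 3, Rps27 and Rps27l move in opposite directions between the days, and Rps2 and Rplp2 did not pass between the genotypes on either day.

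Rps27 and its paralog Rps27l gave the lowest and the highest day 3 fold changes of the members. Both encode forms of the same zinc-finger protein of the small subunit. Their coding sequences, read from GENCODE M21 transcripts (GRCm38), are shown because reads of one could be taken for the other only where they are alike. Capitals mark the bases that differ.
Rps27 lies at chr3:90212522-90213651 on the minus strand and Rps27l at chr9:66946086-66949516 on the plus strand.
Rps27: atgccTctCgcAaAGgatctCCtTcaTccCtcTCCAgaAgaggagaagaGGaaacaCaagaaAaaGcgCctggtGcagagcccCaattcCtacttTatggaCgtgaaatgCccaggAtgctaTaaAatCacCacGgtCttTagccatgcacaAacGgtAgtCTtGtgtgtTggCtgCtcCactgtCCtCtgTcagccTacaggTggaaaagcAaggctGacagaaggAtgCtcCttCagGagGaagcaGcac
Rps27l: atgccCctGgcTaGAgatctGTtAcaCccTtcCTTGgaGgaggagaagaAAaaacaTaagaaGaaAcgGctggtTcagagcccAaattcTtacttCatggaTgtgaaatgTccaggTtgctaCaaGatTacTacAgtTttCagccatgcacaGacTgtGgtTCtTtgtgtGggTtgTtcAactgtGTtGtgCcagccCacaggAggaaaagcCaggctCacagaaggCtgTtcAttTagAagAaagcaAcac

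The sequences have 252 bases each and are 76.2% identical, with 60 differing bases spread along the length and no identical run over 11 bases, so no stretch of 150 coding bases is common to both. Rps27 had 475 and 509 CPM in Susd2-/- day 3 against 1291 and 1059 CPM in Susd2-/- day 0 (-1.26 ± 0.078, adjusted p = 1.15e-10). In WT it had 449.9 and 467 CPM at day 3 against 1893 and 1888 CPM at day 0 (-2.04 ± 0.079, adjusted p = 1.95e-13). Rps27l had 192 and 209.8 CPM in Susd2-/- day 3 against 21.0 and 21.1 CPM in Susd2-/- day 0 (3.26 ± 0.091, adjusted p = 4.51e-16). In WT it had 205 and 169.5 CPM at day 3 against 33.7 and 35.4 CPM at day 0 (2.44 ± 0.087, adjusted p = 1.45e-14). Per kb of transcript, Rps27l stood at 403 CPM per kb in Susd2-/- day 3, 375 in WT day 3, 42.2 in Susd2-/- day 0 and 69.2 in WT day 0, against 1426, 1330, 3406 and 5479 for Rps27 in the same order of groups. At day 0 both genes fell in Susd2-/-, by 0.71 for Rps27l and 0.69 for Rps27 on the log2 scale. Of the Rps27 windows of 150 bases, 98.0% are shared with transcripts of other genes, most of all with Rps27rt, which M21 places on chromosome 9, so reads of these 2 rows can be split. Rps27rt had 23.7 and 25.7 CPM in Susd2-/- day 3, 24.5 and 21.5 in WT day 3, 69.4 and 52.3 in Susd2-/- day 0 and 96.1 and 99.3 in WT day 0, the same order of groups as Rps27.

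Other paralogs named for tissue-limited ribosomal proteins were near the detection limit. Rpl39l, known from male germ cells, is 85% identical to Rpl39 over 153 coding bases and had at most 0.50 CPM in any library, while Rpl39 had 314 and 362 CPM in Susd2-/- day 3, 334 and 323 in WT day 3, 410.0 and 365.5 in Susd2-/- day 0 and 602 and 594 in WT day 0. Rpl3l, known from heart and skeletal muscle, is 73.2% identical to Rpl3 and had 3 counts in library 1 of Susd2-/- day 3, 2 counts each in library 2 of WT day 3 and library 4 of WT day 0, and 0 in the others. Rps4l, a pseudogene row, stood between 0.50 and 2.52 CPM, and its rise at day 3 in WT (1.59 ± 0.47, adjusted p = 0.00483) was lost without WT library 1 of day 3 (1.14, adjusted p = 0.0661).

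Rpl24, Rps10 and Rpl13a, all protein genes that every cell uses, had low counts and overlap other annotated genes. Rpl24 had 7.76 to 11.3 CPM, Rps10 5.87 to 15.2 CPM and Rpl13a 39.9 to 103 CPM over all libraries. Of their 150-base windows 72.5%, 44.2% and 52.7% are shared with transcripts of other genes in M21, most of all with Gm28037, RPS10-NUDT3 and Gm45713. How the counting treated reads that fall in overlapping genes is not given in the sources used here. The levels and changes of these 3 rows, and the rises of Rps10 and Rpl13a at day 3, are therefore uncertain.

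Ribosomal protein genes have many processed copies, which could take or lend reads. At least 50% of windows were shared with other genes for 16 of the 82 members, and under 10% for 30. Of the 29 members tested with under 10% shared windows, 24 fell at day 0 with a median of -0.58, and of the 16 with at least 50%, 14 fell with a median of -0.47. The percentages are of 1 annotated transcript, so a long one lowers them, as for Rps15a (1.2% of 5030 windows). The members under 10% include the pseudogene rows Rpl32l and Rps4l, and are not all free of sharing. The 210 ribosomal pseudogene rows held 0.285% and 0.260% of counts in Susd2-/- day 0 against 0.377% and 0.373% in WT day 0, so they were lower alongside the members. Members with a C or T run of at least 8 bases at an unambiguous start numbered 20, of which 16 fell at day 0 with a median of -0.52, and of 30 with a shorter run 26 fell with a median of -0.51.

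Per kb of the annotated transcript chosen for each gene, Rplp1 was the most abundant member in all 4 groups. The order depends on that choice. Rps15a, with a transcript of 5179 bases, had 1861 CPM but 359 CPM per kb in WT day 0. At day 3 it stood at 3825 CPM per kb in Susd2-/- and 3780 in WT, and Rps2 at 3205 CPM per kb in Susd2-/- and 3477 in WT. At day 0 Rplp1 stood at 3805 CPM per kb in Susd2-/- and 5817 in WT, Rps27 at 3406 and 5479, Rps14 at 3322 and 4992, and Rps18 at 3034 and 4880 in the same order.

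A list of related rows outside the naming form also fell in part. Of 10 such rows 7 fell at day 0 and 0 rose, with a median of -0.37, and 0 passed at day 3. The 10 include the pseudogene rows Rps10-ps1, which fell by 0.31, and Rpl13a-ps1, which did not pass. They also include Rps27rt, whose sequence is shared with Rps27. Rps3a1, of the small subunit, had 2603 and 2435 CPM in Susd2-/- day 0 and 4015 and 3902 CPM in WT day 0 (-0.65 ± 0.061, adjusted p = 5.35e-07). Fau, which yields the small subunit protein eS30 fused to a ubiquitin-like domain, fell by 0.37 and Rack1, a scaffold on the small subunit, by 0.35. Rpl7l1 and Rpl22l1, paralogs of Rpl7 and Rpl22, fell at day 0 by 0.37 and 0.49, and Rpl7l1 rose at day 3 by 2.15 in Susd2-/- and 1.72 in WT.

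Other genes whose mRNAs are known to carry the same kind of tract fell in part at day 0. Of 16 tested, 10 fell and 0 rose, with a median of -0.26. The list holds translation factors and also Tpt1, Naca, Btf3, Nap1l1 and Hnrnpa1, which are not counted among these factors. Eif3e, a subunit of initiation factor 3, had 324 and 316 CPM in Susd2-/- day 0 and 544 and 557 CPM in WT day 0 (-0.78 ± 0.061, adjusted p = 6.87e-08). Eif3k fell by 0.48, and of those that are no translation factor Tpt1 fell by 0.61 and Naca by 0.53. Eef1a1, the elongation factor that delivers aminoacyl-tRNA, had 12452 and 11501 CPM in Susd2-/- day 0 and 14171 and 14260 CPM in WT day 0 (-0.25 ± 0.068, adjusted p = 0.0121), while Eef2 was at -0.09 (adjusted p = 0.303). At day 3 0 of the 16 passed between the genotypes. Against day 0, 13 rose and 2 fell at day 3 in Susd2-/-, and 8 rose and 4 fell in WT.

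Genes that make and process ribosomal RNA rose after stimulation in both genotypes. Of 28 tested, 28 rose and 0 fell at day 3 in Susd2-/- (median 1.69), and 27 rose and 1 fell in WT (median 1.91). Ncl, nucleolin, had 5696 and 5522 CPM in Susd2-/- day 3 against 886 and 876 CPM in Susd2-/- day 0, and in WT 6016 and 5113 CPM at day 3 against 874 and 872 CPM at day 0. Nolc1, a nucleolar phosphoprotein, rose by 2.62 in Susd2-/- and by 3.00 in WT. At day 0, 6 of the 28 were lower and 5 higher in Susd2-/-, with a median of 0.02. Npm1 fell by 0.45 and Nhp2 by 0.47, while Nop56 rose by 0.39 and Gnl3 by 0.42.

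Chaperones and export adaptors of ribosomal proteins rose after stimulation, 10 of 11 in Susd2-/- (1 fell) and 10 of 11 in WT (0 fell), with medians of 1.59 and 1.53. At day 0 2 of 11 were higher in Susd2-/-, Ltv1 and Grwd1, and 2 lower, Abce1 and Nmd3. Of 77 mitochondrial ribosomal protein genes 74 rose and 1 fell at day 3 in Susd2-/- (median 1.5), and 73 rose and 1 fell in WT (median 1.17). At day 0, 25 of these were lower in Susd2-/- and 1 higher, with a median of -0.18, against -0.52 for the cytosolic members.

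Genes that control ribosomal protein output through MYC and mTORC1 were for the most part not called lower at day 0. Of 16 tested, 6 rose and 1 fell in Susd2-/-, with a median of 0.13. Myc had 157 and 142 CPM in Susd2-/- day 0 and 106 and 112.5 CPM in WT day 0 (0.45 ± 0.075, adjusted p = 0.000268). Larp1 had 302 and 296 CPM in Susd2-/- day 0 and 251 and 246 CPM in WT day 0 (0.27 ± 0.064, adjusted p = 0.00489), Rptor and Tsc2 rose by 0.28 and 0.27, and Rheb fell by 0.25. At day 3 0 of 16 passed between the genotypes. These are mRNA levels, and what part MYC or mTORC1 had in the day 0 fall was not tested.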

How the data were processed

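The deposited table holds whole-number counts per gene that the authors made for 15 sequencing lanes. Per the submitters' processing notes, fastp 0.23.2, HISAT2 2.1.0, SAMtools 1.10 and Subread 2.0.1 were used with GRCm38. For the annotation release, the strand setting and reads with several matches, nothing is given in these sources. Lanes were summed to 8 libraries, and library totals were 26829807 to 53846911 counts.

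Counts were fitted with edgeR 4.0.16 in R 4.3.3 (TMM factors, filterByExpr, robust quasi-likelihood, all 8 libraries in 4 groups). P-values were adjusted by Benjamini-Hochberg over the 16057 genes kept, with a threshold of 0.05. DESeq2 1.42.0 and limma voom 3.58.1 were alternatives. Tested on simulated data, fitted fold changes had little bias, smaller changes were often missed, and the share of false calls was above the nominal rate when each gene had its own spread. CPM uses TMM-scaled totals, and CPM per kb divides by the length of 1 GENCODE M21 transcript per gene. That transcript is the longest of the gene's principal coding ones, or else of its coding ones, or else of any. The same transcript gave the length classes, the length offset and the windows of each member. Shared windows are stretches of 150 bases found in transcripts of other genes.

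The members, gene lists and marker lists were chosen with earlier results of these data known. The naming rule took, for each comparison, the 6 members of highest and the 6 of lowest log2 fold change, the members called against the majority, and those not called where they were few. It also took members by role, known paralogs, and from each related list up to 4 genes of smallest adjusted p per comparison. Other genes were named after their values were seen, such as Rpl24, Rps10 and Rpl13a for shared sequence and Eef1a1, Eef2, Rptor, Tsc2, Rheb and Gnl3 from the lists. Some genes and results that are part of these lists and counts are not reported here by name.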

Additional observations from a re-analysis of the deposited data

Results flagged for a closer look

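The difference between Susd2-/- and WT differed between day 3 and day 0 for 64 of 81 ribosomal protein genes by the interaction term of the edgeR fit. Among the genes named for this, Rpl30 had an interaction of 0.83 on the log2 scale, Rpl36a of 0.75, Rpl31 and Rpl35 of 0.74 each, and Rpl7 and Rps15a of 0.71 each. For each of these, both Susd2-/- libraries lay below both WT libraries at day 0. At day 3 the genotypes overlapped for Rpl30, Rpl31, Rpl36a, Rpl7 and Rps15a, and both Susd2-/- libraries of Rpl35 lay above WT without passing the test. What sets the difference was not tested.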

How the results depend on the processing

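The day 0 fall held its count within 1.5 times in every alternative run. The same 71 members were called under other scalings, other filters, DESeq2, voom and the replicate block, 62 to 66 of them when Susd2-/- library 4, WT library 3 or WT library 4 of day 0 was left out, and 57 when the day 0 libraries of each genotype were summed to 1. Alternatives with an offset for length or GC were chosen after seeing the data. The length offset gave 1 member higher at day 0 and medians of -0.41 at day 0, -0.10 for the days in Susd2-/-, -0.42 for the days in WT and 0.38 for the interaction. Total counts with no TMM factor gave 44 lower, 14 higher and a median of -0.19 for the days in Susd2-/-, and a median of -0.70 for the days in WT. In Susd2-/- Rpl11, Rpl22 and Rpsa turned negative, at -0.03, -0.06 and -0.04. So did Rpl8, Rpl27a and Rps25, at -0.01, -0.03 and -0.05. With all genes of at least 1 count the median in Susd2-/- was 0.09. The share in WT day 0 was 12.8% of counts without mitochondrially encoded genes.

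The replicate number as a block kept all 71 calls at day 0 and changed no other count between the genotypes or of the interaction. With the block the days could not be compared, since numbers 1 and 2 are at day 3 and 3 and 4 at day 0. Libraries of a number share nothing more by the labels, and the deviations of same-numbered libraries correlated at -0.0104 at day 3 and 0.00859 at day 0.

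Leaving out each library in turn, with the lone library of a group assumed to vary like the others, gave 62 to 71 lower, 0 higher and medians of -0.61 to -0.46 at day 0. At day 3 it gave 0 in either direction and medians of -0.04 to 0.08. For the days in Susd2-/- it gave 17 to 32 lower, 22 to 33 higher and -0.07 to 0.14, and in WT 54 to 61 lower, 8 to 10 higher and -0.53 to -0.47. For the interaction it gave 57 to 67 higher, 0 lower and 0.47 to 0.65. The shares were 7.62% to 8.07% in Susd2-/- day 3, 7.52% to 8.01% in WT day 3, 8.69% to 9.41% in Susd2-/- day 0 and 12.4% to 12.6% in WT day 0. The cause of these shifts was not tested. A tally was made of called members taken as extremes, by role or as paralogs. Of their 1666 values under alternatives, 1615 kept direction and call, 48 lost the call and 3 reversed. Rpl8, Rpl27a and Rps25, which also turned negative with total counts, are outside this tally. Depth limits Rpl39l, Rpl32l and Rps4l, which had few counts.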
